A study of Mus musculus with 8 samples.

Results

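Histones are the proteins around which DNA is packed, and the genes described here are the replication-dependent ones, which in mice carry the symbols Hist1h, Hist2h, Hist3h and Hist4h after the gene cluster they lie in. All mouse protein-coding rows of the deposited table with such a symbol were taken. They number 65 of the 52016 rows, of which 31300 are mouse and 20716 canine genes, and 21474 are mouse protein-coding genes. By protein they are 6 H1, 18 H2A, 16 H2B, 12 H3 and 13 H4 genes. On GRCm38, 52 of them lie on chromosome 13, 10 on chromosome 3, 2 on chromosome 11 and 1 on chromosome 6. A further 3 rows with histone symbols are pseudogenes and are not among the 65.

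H2A, H2B, H3 and H4 form the core of the nucleosome, and H1, the linker histone, binds where DNA enters and leaves it. Dividing cells need new histones as they copy their DNA, so these genes are transcribed mainly in S phase, each protein from many nearly identical copies. Their mRNAs typically have no introns and end in a short stem-loop, bound by the protein SLBP, where other mRNAs carry a poly(A) tail.

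The RNA came from exosomes, small membrane vesicles, enriched from serum of NCr nu/nu mice, an immunodeficient strain that lacks mature T cells. Mice were injected in the tibia with 10 µl of phosphate-buffered saline (PBS) or with 100000 cells of OSCA-32 or of OSCA-40, which are cell lines of canine osteosarcoma, a bone cancer. The 8 libraries form 4 groups of 2: pooled serum of all mice before injection (week 0), and serum at week 8 after PBS, OSCA-32 or OSCA-40. The samples are pools, and the labels do not say whether the libraries of a group differ in the animals behind them. The p-values below therefore speak of the spread between libraries, and that spread may be technical only.

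The values are whole numbers that sum to between 977106 and 989183 in every library, mouse and canine genes together, so they are relative amounts, with an unknown depth. Canine rows held 16.1 to 17.4% of the total at week 0 and 14.7 to 15.2% with PBS, against 43.3 to 44.7% with OSCA-32 and 68.4 to 70.7% with OSCA-40. The deposited level of the median tested mouse gene was therefore lower with tumour cells, with log2 differences from PBS of -0.55 for OSCA-32 and -1.51 for OSCA-40. For tests, each value was divided by a factor for its library, set so that the bulk of genes had the same level in all 8 libraries. The OSCA-40 libraries had the lowest factors (0.484 and 0.463), the OSCA-32 libraries had 0.979 and 1.01, and the tumour-free libraries had more than 1.4. Values after this division are called scaled values below, and a scaled value in an OSCA-40 library is more than double the deposited one. Less RNA per vesicle and fewer vesicles from a given kind of cell cannot be told apart in such data, nor can mouse RNA and canine RNA assigned to a mouse gene.

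Histone genes share much of their sequence, and the first coding bases show how far the copies differ. The next lines give the first 90 coding bases of 3 H4 genes, with capitals at each base that differs from Hist4h4, the H4 gene with the highest values. Hist2h4 differs from it at 18 of the 90 bases and Hist1h4i at 16, yet all 13 H4 genes code for the same protein.
Hist4h4: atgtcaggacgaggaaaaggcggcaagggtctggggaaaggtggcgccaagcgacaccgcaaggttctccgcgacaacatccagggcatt
Hist2h4: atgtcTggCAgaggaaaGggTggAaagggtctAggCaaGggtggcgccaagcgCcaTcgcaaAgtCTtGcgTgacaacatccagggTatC
Hist1h4i: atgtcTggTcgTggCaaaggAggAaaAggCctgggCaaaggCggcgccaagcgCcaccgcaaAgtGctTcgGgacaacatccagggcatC

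Over the whole coding sequence, Hist4h4 was 85.4 to 87.1% identical to each of the other 12 H4 genes. The 78 pairs of H4 genes had a median coding identity of 93.9%, so Hist4h4 was at the distant end of its class. The same stretch of 3 H2A genes follows, with capitals where a base differs from Hist2h2aa1, the H2A gene with the highest values. Hist2h2ac differs at 4 bases and Hist1h2ap at 15.
Hist2h2aa1: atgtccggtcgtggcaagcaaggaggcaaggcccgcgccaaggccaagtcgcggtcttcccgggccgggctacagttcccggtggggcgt
Hist2h2ac: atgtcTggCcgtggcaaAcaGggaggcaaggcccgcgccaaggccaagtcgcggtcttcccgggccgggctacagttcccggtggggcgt
Hist1h2ap: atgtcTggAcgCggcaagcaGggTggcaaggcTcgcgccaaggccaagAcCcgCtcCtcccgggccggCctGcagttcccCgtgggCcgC

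Of the 65 genes, 45 fell into 7 sets whose members code for 1 and the same protein, and 5 pairs had identical coding bases. These pairs are Hist1h2ao and Hist1h2ap, Hist1h2bq and Hist1h2br, Hist1h4m and Hist1h4n, Hist2h2aa1 and Hist2h2aa2, and Hist2h3c1 and Hist2h3c2. To measure what a read could tell apart, each transcript model was broken into all its stretches of 31 bases (31-mers), and a 31-mer was called unique when no other mouse gene with a row held it. The median share of unique 31-mers was 96.2% for H1, 25.1% for H2A, 48.8% for H2B, 39.0% for H3 and 52.1% for H4. H1 genes were thus the most distinct, and 36 of the 65 genes had under 50% of unique 31-mers. Canine transcripts were not part of this count.

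The stem-loop at the end of the mRNA was searched on the sense strand, after the stop codon, as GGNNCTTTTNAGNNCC, where N is any base and pairing of the stem was not required. It was found in 42 of the 65 genes (64.6%), of which only the shortest protein-coding model was searched. Among other genes with a protein-coding model it was found in 28 of 21381 (0.131%), searched over the whole of every such model. Of the 23 without a match, 17 have a searched model that ends at most 5 bases after the stop codon. Hist1h2bq and Hist1h2br, without a match, have 3 models each, and their other models were not searched. The matches of the highest H4, the highest H2A and an H1 gene are printed with 5 bases on each side, in capitals the match itself.
Hist4h4: acaaaGGCCCTTTTCAGGGCCcacaa
Hist2h2aa1: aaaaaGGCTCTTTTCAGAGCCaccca
Hist1h1c: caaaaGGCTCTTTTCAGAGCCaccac

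Most of the 65 genes were at or near 0 in every library. The median of their mean values was 1.25, against 3.625 over all mouse protein-coding rows and 2.25 over the 1091 olfactory receptor genes, a family used mainly in the nose. Only 8 of the 65 (12.3%) were listed at 1 or more in all 8 libraries, against 70.5% of protein-coding rows and 50.8% of olfactory receptor genes. A total of 59 genes never reached 10, 57 were at 0 in at least 1 library, and Hist1h2ab, Hist1h2ai, Hist2h2aa2 and Hist1h3h were at 0 in all 8. The number of histone genes listed at 1 or more was 41 to 42 at week 0, 42 to 46 with PBS, 31 to 33 with OSCA-32 and 23 to 29 with OSCA-40. The ranges of the tumour groups lay below those of both tumour-free groups. Over all protein-coding rows the listed share was 95.2 to 95.7% with PBS, 92.2 to 93.0% with OSCA-32 and 82.6 to 82.8% with OSCA-40. Over the olfactory receptor genes it was 94.3 to 96.2%, 86.7 to 89.1% and 70.4 to 74.7%, so fewer genes were listed in the tumour groups in these sets too.

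**Figure D1:**
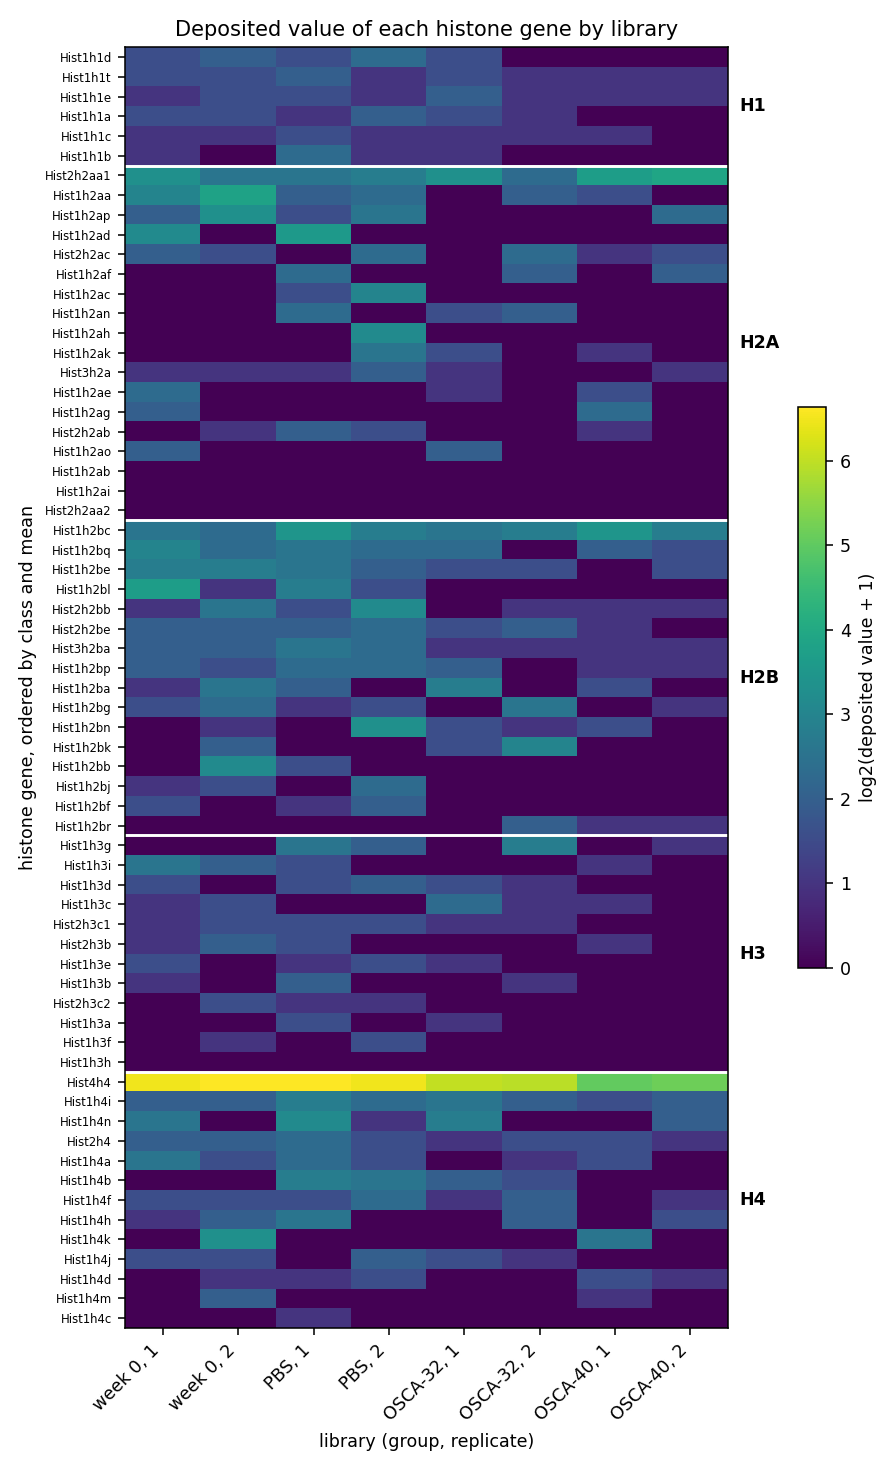
Heat map of the deposited values of the 65 histone genes (rows, ordered by class and then by mean) in the 8 libraries (columns), coloured by log2(value + 1). Hist4h4 is the bright row, from 32 to 98, and most other cells are dark, at values of 0 to 5.

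Copies with little unique sequence varied most between libraries of a group. A gene was at 0 in 1 library and at 3 or more in the other in 38 of 260 pairs of libraries of the same group (14.6%), against 1.64% of such pairs over all protein-coding rows, whose levels are higher. The share was 20.1% (29 of 144) for genes with under 50% of unique 31-mers and 7.76% (9 of 116) for the others. H2A, H2B, H3 and H4 have less unique sequence than H1 and also shorter models, with medians of 466 to 625 bases against 1236. Model length was not separated from unique share. Examples are Hist1h2ad, an H2A gene, at 8 and 0 at week 0 and 11 and 0 with PBS, and Hist1h2bl, an H2B gene, at 12 and 1 at week 0 and 6 and 2 with PBS. Levels of single copies were therefore read beside sums over copies, below.

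**Figure D2:**
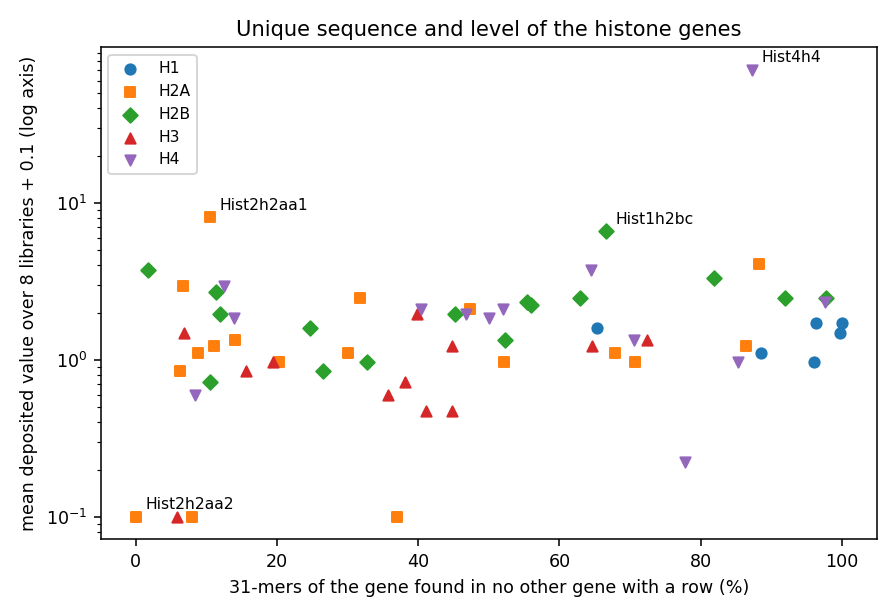
Each point is a histone gene, by the percentage of its 31-mers found in no other mouse gene with a row (x axis) and its mean deposited value over 8 libraries plus 0.1 (y axis, log scale). Hist4h4 is highest at 87.2% unique 31-mers, Hist2h2aa1 has 10.4%, and Hist2h2aa2 has 0% and is listed at 0.

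Only 3 of the 65 genes reached 10 in 2 or more libraries and were tested: Hist4h4, Hist2h2aa1 and Hist1h2bc. In all 7872 genes passed this filter, and each p-value is from limma, a moderated linear model of log2(scaled value + 1), adjusted over all of them by the Benjamini-Hochberg method within a comparison. Just outside were Hist1h2aa with a highest value of 13, Hist1h2bl with 12 and Hist1h2ad with 11, each above 10 in a single library. The other 62 genes were left out of the tests by this filter, so the counts of calls below are over 3 genes.

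Hist4h4 (chr6:136801553-136804415, minus strand, GRCm38, 1 exon), the H4 gene outside the main clusters, was listed at 89 and 97 at week 0, 98 and 88 with PBS, 64 and 61 with OSCA-32, and 32 and 35 in the OSCA-40 libraries. As deposited, the OSCA-40 libraries were lowest, the OSCA-32 libraries lay between, and week 0 overlapped PBS. Its mean of 70.5 was exceeded by only 2.04% of protein-coding rows. It made up 69.6 to 80.9% of the H4 sum and 33.0 to 44.9% of the sum over all 65 genes in every library.

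After scaling, Hist4h4 stood at 62.7 and 67.2 at week 0, 66.4 and 58.9 with PBS, 65.3 and 60.6 with OSCA-32, and 66.1 and 75.5 in the OSCA-40 libraries. The groups overlapped, apart from a highest value in an OSCA-40 library. The log2 difference from PBS was 0.01 ± 0.12 (SE, n = 2 a group, limma, 95% interval -0.26 to 0.28, adjusted p = 0.988) with OSCA-32. With OSCA-40 it was 0.17 ± 0.12 (SE, limma, 95% interval -0.10 to 0.45, adjusted p = 0.454). Hist4h4 thus differed between groups by about as much as the median mouse gene. Scaled by library totals alone, its difference from PBS was -0.57 with OSCA-32 (limma, adjusted p = 0.0181) and -1.46 with OSCA-40 (limma, adjusted p = 4.02e-05), where 17.2% and 85.4% of all tested genes were called. That setting leaves in place the lower level of the median mouse gene given above, so these values restate it.

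The transcript model of Hist4h4 is long for a histone gene. It has 2863 bases, 309 of them coding, and continues for 2445 bases after the stem-loop printed above. Bases 1981 to 2664 of the model (chr6:136801752-136802435) hold 366 of the 378 positions at which its 31-mers occur also in genes outside the 65. This stretch, which lies in the part after the stop codon, contains 8 exact tandem copies of a 22-base unit at model bases 2336 to 2511 (chr6:136801905-136802080). The unit is printed because its repetition marks the stretch.
Repeat unit of Hist4h4: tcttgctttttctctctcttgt

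A total of 89 genes outside the 65 share at least 1 31-mer with Hist4h4, and 28 share 10 or more, a limit chosen after the values were seen. Of these 28, 18 (64.3%) had a mean value of 10 or more, with a median of 30.2 and a range of 1.63 to 852. Over all protein-coding rows, 18.0% had a mean of 10 or more. The gene-level values do not separate the coding part from the later stretch, and the part of the shared sequence in the level of Hist4h4 was not tested.

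**Figure D3:**
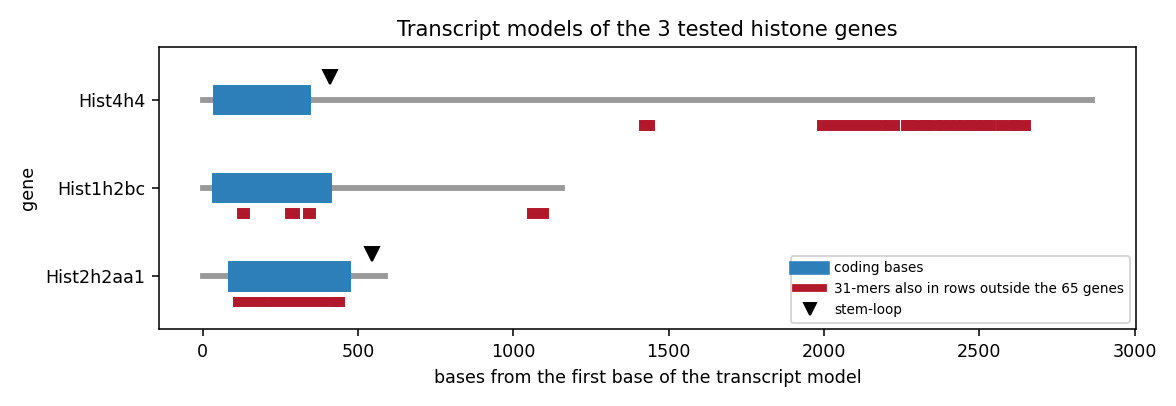
Transcript models of the 3 tested genes to scale, in bases from the first base of the model (grey line), with coding bases in blue, stretches of 31-mers also found in mouse rows outside the 65 genes in red, and the stem-loop as a triangle. In Hist4h4 most of the red lies between bases 1981 and 2664, far from the coding bases, and in Hist2h2aa1 it covers coding bases.

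The other 12 H4 genes were low. Hist1h4i was listed at 3 and 3 at week 0, 6 and 4 with PBS, 5 and 3 with OSCA-32, and 2 and 3 in the OSCA-40 libraries. Hist1h4n was at 5 and 0, 8 and 1, 6 and 0, and 0 and 3 in the same order. The libraries of a group differed as much as the groups did for Hist1h4n, while Hist1h4i was present in all 8 libraries. The sum of the 12 was 21 to 28 at week 0, 23 to 37 with PBS, 15 to 18 with OSCA-32 and 11 to 14 with OSCA-40 as deposited. On the scaled values it was 14.8 to 19.4, 15.4 to 25.1, 14.9 to 18.4 and 23.7 to 28.9, so that OSCA-40 went from lowest to overlapping PBS at the top.

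Hist2h2aa1 (chr3:96245497-96246082, plus strand, 1 exon) codes for an H2A protein and is part of the chromosome 3 cluster. It was listed at 9 and 5 at week 0, 5 and 6 with PBS, 9 and 4 with OSCA-32, and 12 and 14 in the OSCA-40 libraries. Both OSCA-40 libraries were above the other 6 even before scaling, while the median mouse gene was lower there. It passed the filter only through these 2 libraries, so a difference of the OSCA-40 group from PBS and from OSCA-32 was built into its being tested.

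Scaled values of Hist2h2aa1 were 6.34 and 3.46 at week 0, 3.39 and 4.01 with PBS, 9.19 and 3.97 with OSCA-32, and 24.8 and 30.2 in the OSCA-40 libraries. The OSCA-40 libraries did not overlap any other group. The log2 difference from PBS was 2.60 ± 0.42 (SE, n = 2 a group, limma, 95% interval 1.62 to 3.58, adjusted p = 0.0106). This was 1 histone gene called of 3 tested in OSCA-40 against PBS, where 6.75% of all tested genes were called, 4.41% as higher. With library totals alone the difference was 1.09 (limma, adjusted p = 0.0386). The call was lost without PBS replicate 1 (limma, 2.48, adjusted p = 0.0718), without PBS replicate 2 (limma, 2.66, adjusted p = 0.0585) and, with the genes tested kept, without OSCA-40 replicate 2 (limma, 2.48, adjusted p = 0.0604). Without OSCA-40 replicate 1 and with the genes kept it stood (limma, 2.76, adjusted p = 0.0450), and under the filter itself the gene was not tested once either OSCA-40 library was left out.

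Hist2h2aa1 cannot be separated from its copy. Its model shares 89.6% of its 31-mers with Hist2h2aa2, which has none of its own and was listed at 0 in all 8 libraries, so the 2 rows are best read as a single value. In addition, 52.9% of the 31-mers of Hist2h2aa1 occur in mouse rows outside the 65 genes. The pseudogene row Hist1h2al, described below, holds 247 of its 556 31-mers. Its mean value of 12.75 is above the 8.0 of Hist2h2aa1, and how reads were divided between these rows was not tested. In the annotation used, 3 further gene models with no row of their own overlap the locus, 2 of them on the opposite strand. The sources used here do not say whether the authors' counting was by strand.

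Set against PBS, the other H2A genes did not follow it. With Hist2h2aa1 left out, the 17 remaining H2A genes summed to 26 to 32 at week 0, 30 to 38 with PBS, 9 to 13 with OSCA-32 and 10 to 11 with OSCA-40 as deposited. Their scaled sums were 18.0 to 22.5, 20.3 to 25.4, 9.19 to 12.9 and 21.6 to 22.7, so OSCA-40 lay within the PBS range and OSCA-32 below it. Against OSCA-32 their sum was thus higher with OSCA-40, as Hist2h2aa1 was. Hist1h2aa, a testis histone H2A gene, was at 7 and 13 at week 0, 3 and 4 with PBS, 0 and 3 with OSCA-32, and 2 and 0 in the OSCA-40 libraries. Hist1h2ap, printed above, was at 3 and 9, 2 and 5, 0 and 0, and 0 and 4. Neither reached the filter, and no test was made of either.

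Hist1h2bc (chr13:23684199-23692908, plus strand, 2 exons), an H2B gene, had no stem-loop match in its model. It was listed at 5 and 4 at week 0, 10 and 6 with PBS, 5 and 6 with OSCA-32, and 10 and 6 in the OSCA-40 libraries. The deposited values of PBS and OSCA-40 were the same pair, and the other groups lay at or below them. Its scaled values were 3.52 and 2.77, 6.78 and 4.01, 5.10 and 5.96, and 20.6 and 12.9.

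After scaling, both OSCA-40 libraries were above the other 6. The log2 difference of Hist1h2bc from PBS was 1.48 ± 0.37 (SE, n = 2 a group, limma, 95% interval 0.61 to 2.34), with an adjusted p of 0.0633, which missed the threshold of 0.05. With a pseudocount of 4 in place of 1 it was 1.14 and passed (limma, adjusted p = 0.0499). With library totals alone it was -0.02 (limma, adjusted p = 0.970). Of its 31-mers 66.5% were unique, and 4.24% occurred in rows outside the 65 genes, both within the coding bases and at model bases 1047 to 1112, after them.

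Among the other H2B genes, Hist1h2bq was at 7 and 4 at week 0, 5 and 4 with PBS, 4 and 0 with OSCA-32, and 3 and 2 in the OSCA-40 libraries. Hist1h2be was at 6 and 6, 5 and 3, 2 and 2, and 0 and 2. As deposited, Hist1h2be was higher before injection than in all 4 tumour libraries and Hist1h2bq overlapped them, and neither was tested. On scaled values Hist1h2be overlapped them too, at 4.23 and 4.16 at week 0 against 4.32 in OSCA-40 replicate 2. Summed over the 16 H2B genes, the scaled values were 32.4 to 35.3 at week 0, 31.8 to 35.5 with PBS, 27.6 to 28.8 with OSCA-32 and 32.4 to 45.4 with OSCA-40, which overlapped PBS.

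**Figure D4:**
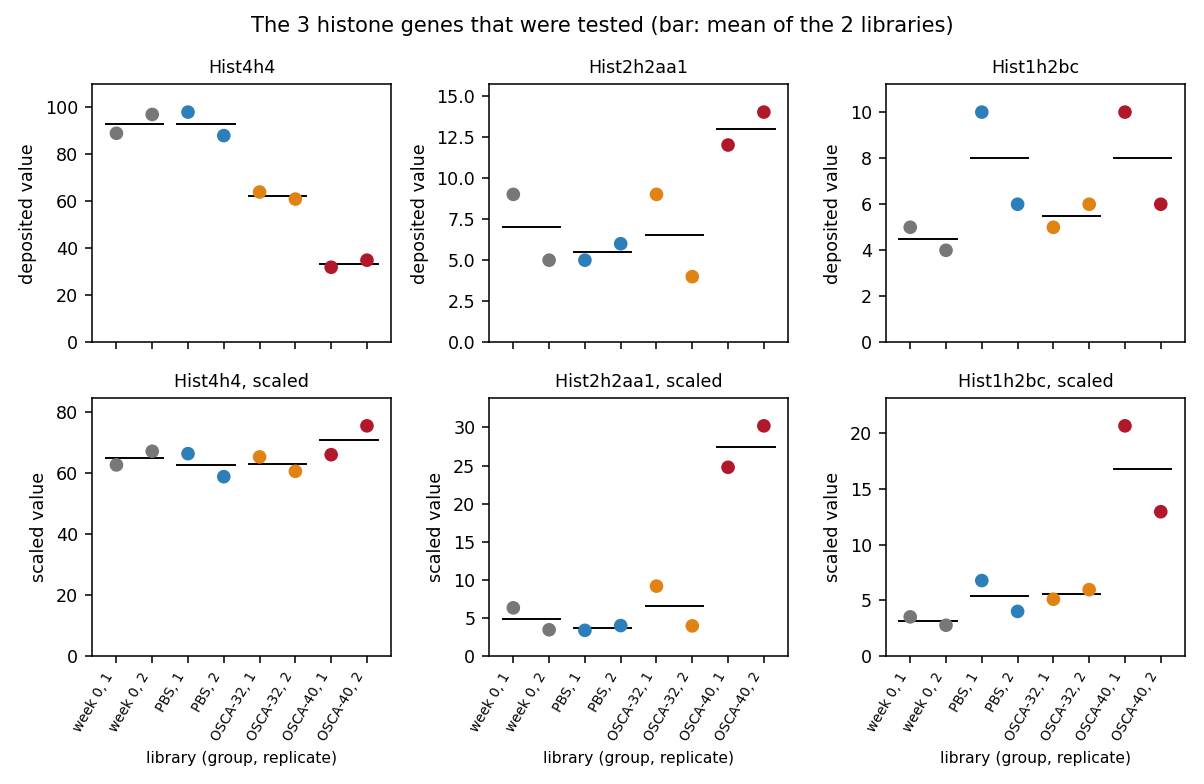
Values of Hist4h4, Hist2h2aa1 and Hist1h2bc in the 8 libraries, as deposited (top) and scaled (bottom), with points coloured by group and a bar at the mean of the 2 libraries. The deposited OSCA-40 values of Hist4h4 (32 and 35) are the lowest of the gene, but its scaled ones (66.1 and 75.5) are at or above most others, while those of Hist2h2aa1 are the highest on both scales.

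No histone gene was called in the other 3 comparisons (limma), where 1.09% of all tested genes were called for OSCA-32 against PBS, 0.165% for PBS against week 0 and 2.76% for OSCA-40 against OSCA-32. At an unadjusted p under 0.05 there were 0, 0 and 2 of the 3 histone genes (limma), beside 816, 371 and 1289 of all 7872 genes tested. The 2 are Hist2h2aa1 and Hist1h2bc. Hist2h2aa1 reached 10 only in the 2 OSCA-40 libraries, and Hist1h2bc only in PBS replicate 1 and OSCA-40 replicate 1. Their being tested thus depended on OSCA-40 libraries, so this count is not independent of the filter. For OSCA-32 against PBS the log2 difference of Hist2h2aa1 was 0.60 ± 0.42 (SE, limma, adjusted p = 0.706) and that of Hist1h2bc 0.06 ± 0.37 (SE, limma, adjusted p = 0.976). Between the lines, OSCA-40 minus OSCA-32, Hist2h2aa1 differed by 1.99 ± 0.42 (SE, limma, 95% interval 1.01 to 2.97, adjusted p = 0.0616), Hist1h2bc by 1.41 ± 0.37 (SE, limma, adjusted p = 0.114) and Hist4h4 by 0.16 ± 0.12 (SE, limma, adjusted p = 0.542). The comparisons of both lines with PBS use the same PBS libraries. From week 0 to PBS the 3 differences were -0.05 ± 0.12 for Hist4h4, -0.29 ± 0.42 for Hist2h2aa1 and 0.60 ± 0.37 for Hist1h2bc (SE, limma), each with an adjusted p of 1.

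H1 and H3 contributed little. The 6 H1 genes summed to 9 to 10 at week 0, 11 to 14 with PBS, 4 to 11 with OSCA-32 and 2 to 3 with OSCA-40. Hist1h1d, which with Hist1h1t had the highest mean, was at 2 and 3, 2 and 4, 2 and 0, and 0 and 0. Hist1h1t, the testis form of H1, was at 2 and 2, 3 and 1, 2 and 1, and 1 and 1, and Hist1h1e at 1 and 2, 2 and 1, 3 and 1, and 1 and 1. These low values belong to genes with mostly unique sequence, at 65.3 to 100% of 31-mers. On the scaled values the H1 sums were 6.34 to 6.93, 7.36 to 9.49, 3.97 to 11.2 and 4.32 to 6.19, so the OSCA-40 libraries were below both tumour-free groups and within the range of OSCA-32.

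The 12 H3 genes summed to 13 and 13 at week 0, 20 and 13 with PBS, 9 and 10 with OSCA-32, and 3 and 1 in the OSCA-40 libraries. The scaled sums were 9.16 and 9.01, 13.6 and 8.70, 9.19 and 9.94, and 6.19 and 2.16. H3 was lowest with OSCA-40 on both scales, without overlap, but the sums there rest on 1 to 3 genes listed at 1 or more. No H3 gene passed the filter. Hist1h3g, the highest, was at 0 and 0 at week 0, 5 and 3 with PBS, 0 and 6 with OSCA-32, and 0 and 1 in the OSCA-40 libraries. Hist1h3i was at 5 and 3, 2 and 0, 0 and 0, and 1 and 0, and Hist1h3d at 2 and 0, 2 and 3, 2 and 1, and 0 and 0.

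**Figure D5:**
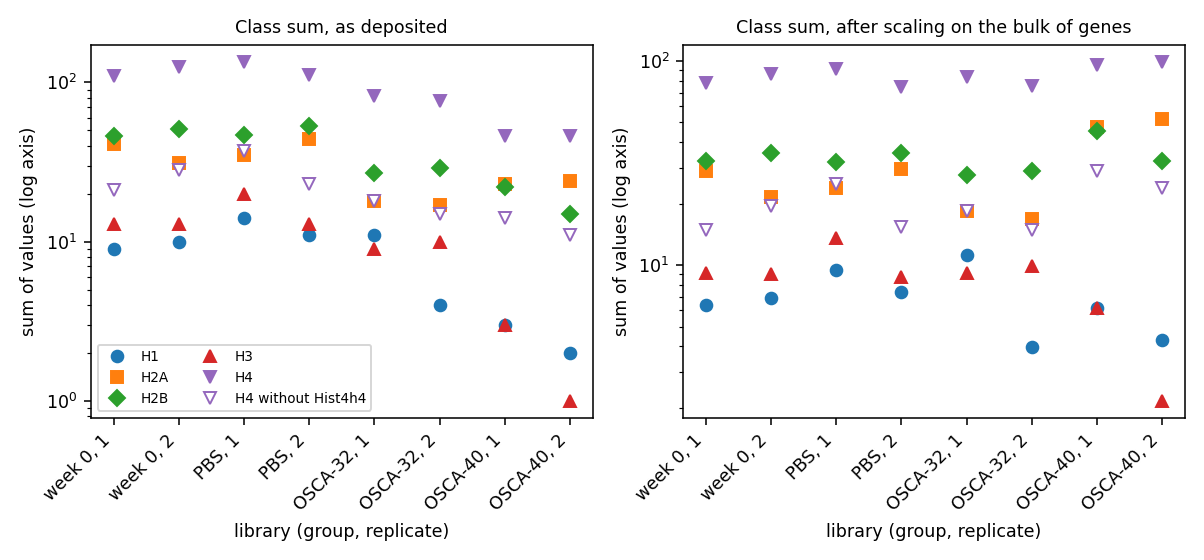
Sums of the values of each histone class in the 8 libraries, as deposited (left) and scaled (right), on log axes, and open triangles are the H4 genes without Hist4h4. As deposited every class is lower with OSCA-40 than with PBS, and after scaling H2A stands at 47.5 to 51.8 with OSCA-40 against 23.7 to 29.4 with PBS, while H3 is lower with OSCA-40 than in the other groups on both scales.

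Over all 65 genes, the deposited sum was 219 to 230 at week 0, 232 to 251 with PBS, 136 to 147 with OSCA-32 and 88 to 97 with OSCA-40. The scaled sum was 154 to 159, 155 to 170, 135 to 150 and 189.9 to 200.3, in the same order. OSCA-40 was thus lowest as deposited and highest after scaling, and OSCA-32 was lowest after scaling. The 62 untested genes alone had scaled sums of 81.7 to 85.9, 88.3 to 93.5, 64.6 to 70.4 and 71.2 to 88.8, so in them OSCA-40 was not above PBS. This set lacks Hist2h2aa1 and Hist1h2bc, whose being tested depended on OSCA-40 libraries, so the comparison is not independent of the filter. With only Hist4h4 left out, the scaled sums were 91.6 to 92.1, 96.3 to 103.7, 74.5 to 84.7 and 114 to 134, with OSCA-40 above PBS.

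Copies that code for 1 protein were also summed, which takes away the question of how reads were divided within a set, though the sets still share 31-mers with each other and with rows outside the 65 genes. The 9 genes of the largest H2A set summed to 21 and 9 at week 0, 19 and 12 with PBS, 6 and 3 with OSCA-32, and 6 and 4 in the OSCA-40 libraries. On the log2 scale of scaled values they differed from PBS by -1.07 ± 0.48 (SE) with OSCA-32 and 0.02 ± 0.48 (SE) with OSCA-40. OSCA-40 minus OSCA-32 was 1.09 ± 0.48 (SE). Hist1h2bc with the genes of the same protein, Hist1h2be and Hist1h2bg, summed to 13 and 14, 16 and 11, 7 and 13, and 10 and 9, with 1.08 ± 0.30 (SE) for OSCA-40 against PBS. The 8 genes of the larger H3 set summed to 8 and 10, 11 and 10, 8 and 4, and 2 and 0, with -1.83 ± 0.77 (SE). The 13 H4 genes summed to 110 and 125, 135 and 111, 82 and 76, and 46 and 46, with 0.23 ± 0.13 (SE). Apart from Hist2h2aa1 with Hist2h2aa2, no summed set that was tested was called in any of the 4 comparisons (limma, adjusted over all tested genes).

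Genes of the same pathways were followed in 4 lists: replication-independent histone variants, factors of histone mRNA transcription and 3′ processing, histone chaperones, and genes of DNA replication and proliferation. None of their tested members was called higher or lower in any of the 4 comparisons (limma): 0 of 3, 0 of 6, 0 of 14 and 0 of 14, of 18, 23, 22 and 30 with a row. Over all tested genes, 1.09% were called for OSCA-32 and 6.75% for OSCA-40 against PBS. For PBS against week 0 it was 0.165%, and for OSCA-40 against OSCA-32 2.76%. Counts of 0 in lists this short are near those shares. The medians of their log2 differences between OSCA-40 and PBS were -0.36, -0.19, 0.13 and -0.19, against -0.02 over all tested genes.

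Among the variants, H3f3a, which codes for H3.3, was listed at 21 and 12 at week 0, 25 and 14 with PBS, 8 and 15 with OSCA-32, and 4 and 6 in the OSCA-40 libraries. H2afy, the gene of macroH2A, was at 17 and 15, 20 and 20, 11 and 10, and 4 and 5. Cenpa, the H3 variant of centromeres, was at 12 and 15, 12 and 13, 9 and 8, and 3 and 3. The group means of all 3 were lower in both tumour groups as deposited, as the median gene was, and on scaled values they differed between OSCA-40 and PBS by -0.26 ± 0.43, -0.47 ± 0.21 and -0.36 ± 0.24 (SE, log2, limma).

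Of the processing factors, Pou2f1, which codes for OCT1, an activator of H2B genes, differed by -0.50 ± 0.18 (SE, log2, limma, adjusted p = 0.171) between OSCA-40 and PBS. Zfp473, a protein of the histone 3′-end machinery, differed by -0.15 ± 0.17, and Srrt, a partner of the cap-binding complex, by -0.31 ± 0.24. Srrt had its largest difference with OSCA-32, at 7 and 7 against 27 and 31 with PBS, or -1.35 ± 0.24 (SE, log2, limma, adjusted p = 0.0569). Slbp, named for its role in binding the stem-loop after its values were seen, was at 17 and 14 at week 0, 11 and 19 with PBS, 5 and 9 with OSCA-32, and 4 and 5 in the OSCA-40 libraries, which is -0.04 ± 0.35 for OSCA-40 against PBS.

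Hjurp, the chaperone of Cenpa, had the highest values of the chaperones, at 140 and 148 at week 0, 138 and 154 with PBS, 108 and 100 with OSCA-32, and 41 and 49 in the OSCA-40 libraries. Its log2 difference on scaled values was -0.05 ± 0.13 (SE, limma) for OSCA-40 against PBS. Npm1, nucleophosmin, differed by 0.24 ± 0.27, and Atrx, which places H3.3 in heterochromatin, by -0.29 ± 0.34. These differences were within about their standard errors.

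In the replication list, Pola1, the catalytic subunit of DNA polymerase alpha, was at 107 and 66 at week 0, 96 and 88 with PBS, 37 and 32 with OSCA-32, and 13 and 19 in the OSCA-40 libraries. It differed from PBS by -0.82 ± 0.27 (SE, log2, limma, adjusted p = 0.335) with OSCA-32 and -0.88 ± 0.27 (adjusted p = 0.123) with OSCA-40. Tyms, thymidylate synthase, differed by -0.50 ± 0.25 and Top2a, a topoisomerase of dividing cells, by -0.15 ± 0.20 with OSCA-40. The scaled sum of the 30 genes was 225 to 261 at week 0, 242 to 270 with PBS, 203 to 213 with OSCA-32 and 175 to 216 with OSCA-40, so both tumour groups lay below both tumour-free ones. Part of this gap came from Pola1, which held 96 and 88 of deposited sums of 399 and 362 with PBS. With OSCA-40 it held 13 and 19 of 85 and 100.

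Some markers of platelets, red cells and hepatocytes were called in the same comparison as Hist2h2aa1. Of 10 platelet genes, 3 of 4 tested were called higher with OSCA-40 than with PBS (limma): Tmsb4x by 2.71 ± 0.14, Pf4 by 2.76 ± 0.25 and Ppbp by 1.57 ± 0.27 (SE, log2). The fourth, Itga2b, differed by 0.34 and was not called. The scaled sum of the 10 was 79.7 to 88.1 at week 0, 87.6 to 106 with PBS, 158 to 189 with OSCA-32 and 408 to 448 with OSCA-40. Most of it with OSCA-40 came from Pf4 and Tmsb4x. Of deposited sums of 217 and 189 there, Pf4 held 85 and 69 and Tmsb4x 95 and 88. Of 11 erythroid genes, 1 of 8 tested, Hba-a2, was called higher, by 1.70 ± 0.07. Not called were Hbb-bt (1.28), Hba-a1 (1.16), Ank1 (0.95), Hbb-bs (0.49), Epb42 (0.23), Sptb (0.06) and Slc4a1 (-0.09). The median log2 difference of the 8 was 0.72. The erythroid scaled sum was 340 to 362 at week 0, 237 to 257 with PBS, 295 to 302 with OSCA-32 and 557 to 643 with OSCA-40, so PBS was the lowest group, and Hba-a2 was also called lower with PBS than at week 0 (log2 difference -0.76, limma, adjusted p = 0.0157). Of 8 hepatocyte genes, 2 of 3 tested were called higher, Alb by 1.70 ± 0.30 and Trf by 0.76 ± 0.17. Of the tested markers of neutrophils, B cells and T cells, 0 of 2, 0 of 2 and 0 of 3 were called, with median log2 differences of -0.15, -0.14 and 0.23. Cd3d of the T cell list was at 83 and 90 at week 0 and 41 and 32 with OSCA-40, in a strain that lacks mature T cells. Whether the marker lists gauge their cell types here was not tested. Of the 6 osteoblast markers, 0 of 4 tested were called, with a median log2 difference of -0.68. None of the markers of the platelet, erythroid and hepatocyte lists was at 0 in all 8 libraries, and their part in the value of Hist2h2aa1 was not tested.

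The vesicle label was read against 10 vesicle genes, all with a row. Of 6 tested, Cd9, a tetraspanin, was called lower with OSCA-40 than with PBS (log2 difference -1.20 ± 0.11, SE, limma, adjusted p = 0.000725). It was listed at 208 and 192 with PBS, 106 and 117 with OSCA-32, and 29 and 26 in the OSCA-40 libraries. Not called were Cd82 (-0.95), Pdcd6ip (-0.89), Tsg101 (-0.44), Sdcbp (-0.08) and Cd81 (0.19), and the median of the 6 was -0.66. The scaled sum of the 10 genes was 189 to 203 with PBS and 101 to 107 with OSCA-40. Cd9 was present in every library, but Flot2 was at 0 in PBS replicate 2 and OSCA-40 replicate 1, and Hspa8 in OSCA-40 replicate 2.

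Outside the 65 genes, the pseudogene row Hist1h2al had values above those of nearly all coding histone genes, at 15 and 10 at week 0, 19 and 12 with PBS, 13 and 17 with OSCA-32, and 2 and 14 in the OSCA-40 libraries. Another, Hist1h2aj, was at 0 and 16, 10 and 3, and 0 in the 4 tumour libraries. Both are H2A-like sequences, and any reads of H2A copies given to them are not in the sums above.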

How the data were processed

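Exosome RNA of 8 libraries in 4 groups of 2 was analysed. Per the labels' protocols, vesicles were precipitated with ExoQuick and libraries made with a stranded total RNA kit for low input. Per the submitters' processing notes, FastQC 0.11.5, Trimmomatic 0.33.0 and kallisto 0.43.0 were used with GRCm38.p5 and CanFam3.1; the sources used here do not give the index, annotation release or filters. The deposited values are a score: whole numbers that behave as TPM over both species and not as read counts, so no count model was used and depth is unknown.

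Symbols, models and coordinates are from GENCODE mouse release M21 (GRCm38), which named 31171 of 31300 mouse identifiers. Genes with at least 10 in at least 2 libraries were tested with limma 3.58.1 (R 4.3.3), taking log2(scaled value + 1), with a mean per group over all 8 libraries (4 residual degrees of freedom), a variance trend and scaling by a trimmed mean of log ratios (30% of ratios and 5% of levels trimmed at each end). A fold change on this scale understates the change of low genes. Benjamini-Hochberg adjustment ran over all tested genes within a comparison, and calls needed an adjusted p under 0.05. The procedure was tested on simulated data made for genes that had already passed the filter, so that test cannot show effects of the filter.

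The members and lists were chosen with earlier results of these data known. Named were all called members, the 3 highest of each class, the 3 smallest p-values per comparison and, per pathway list, called genes and the 3 highest.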

Additional observations from a re-analysis of the deposited data

How the results depend on the processing

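With library totals alone, Hist4h4 came to -0.57 with OSCA-32 against PBS, -1.46 with OSCA-40 against PBS and -0.89 with OSCA-40 against OSCA-32. Hist1h2bc came to -0.45 and -0.02 against PBS, and Hist2h2aa1 to 1.09 with OSCA-40 against PBS. This setting leaves the lower mouse share of tumour libraries in place. It called 1, 2, 0 and 1 histone genes, in the order of the OSCA-32 group and then the OSCA-40 group set against PBS, PBS set against week 0, and the lines set against each other. The main counts were 0, 1, 0 and 0. A pseudocount of 4 called 2 histone genes for OSCA-40 against PBS and 1, Hist2h2aa1 (1.61), for OSCA-40 against OSCA-32. Of all tested genes it called 6.91% and 3.38%. Without a filter, 61 histone genes were tested and 3 were called for OSCA-40 against PBS (Hist2h2aa1 higher, Hist1h4b and Hist2h3c1 lower) and 1 for OSCA-40 against OSCA-32 (Hist1h4b). Of all genes tested without a filter, 6.68% and 4.78% were called in these comparisons. Hist1h4b was listed at 0 and 0 in the OSCA-40 libraries, but also at 0 and 0 at week 0. With a minimum of 5, 16 were tested and 1 called for OSCA-40 against PBS, beside 3.85% of all genes tested. For OSCA-40 against PBS, leaving out each library gave 0 to 1 histone genes called. With the genes tested kept, an alternative chosen after seeing the data, it was 0 without OSCA-40 replicate 2.

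Over all genes the main counts were 86, 531, 13 and 217. They were 1353, 6725, 12 and 4638 with library totals alone, 63, 2312, 2 and 1654 without a filter, 75, 643, 8 and 222 with a minimum of 5, 46, 312, 2 and 82 with only the groups compared, and 73, 313, 5 and 112 without the variance trend. Leaving out each library gave 38 to 86, 278 to 530, 2 to 10 and 70 to 171. With the genes kept, PBS against week 0 had 7 without either OSCA-40 library. The causes were not tested.

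With the replicate number as a block the counts were 60, 460, 6 and 144, and no histone call changed. Differences between replicates correlated between groups at -0.06 to 0.01 over 6 pairs of groups, so the numbers are not shown to pair libraries. The depth is unknown, and 62 genes with low values were left out by the filter.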
